A study of Mus musculus with 4 samples.

Results

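Proliferating lymphocytes were examined in mammary tumours of mice with and without interleukin 1α in the host. A droplet was counted as a cycling lymphocyte when it held at least 2 UMIs (unique molecular identifiers, which count captured transcripts once each) of Mki67 and Top2a together and at least 1 UMI of Cd3d, Cd3e, Cd3g or Ncr1. It also had to hold fewer than 3 UMIs of Lyz2 and none of Epcam or Siglech. The quality limits were 500 UMIs or more from 250 genes or more, with no more than 20% of them mitochondrial. This gave 733 cycling lymphocytes among 8599 lymphocytes that passed the same limits without the Mki67 and Top2a term, and among 14555 droplets that passed the quality limits alone. The 7190 lymphocytes with no UMI of Mki67 or Top2a are called non-cycling below.

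The tumours grew from cells of the HER2+ mouse mammary tumour line H605, which were injected into the mammary pad, and they were taken on day 14. The 2 groups were WT hosts and IL1α-/- hosts, with 2 tumours each, and the label for strain was FVB/NJ in all 4 samples. The age given was 6 to 8 weeks, in a field meant for the cell type. The knockout is in the host, so the transplanted tumour cells of both groups carry an intact gene, and all infiltrating lymphocytes of an IL1α-/- tumour come from the knockout animal. Dissociated tumour cells were enriched for live cells, with no sort for lymphocytes. The labels do not say whether a tumour was pooled from several animals, so p-values measure only the spread between these 4 samples.

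Libraries held 6705368 to 29001333 UMIs, and both IL1α-/- libraries were shallower than both WT libraries. Il1a, the targeted gene, had 67 and 112 UMIs over all droplets passing the quality limits in the WT libraries, against 1 and 0 in the IL1α-/- libraries. No cycling lymphocyte of any library held an Il1a UMI, and Il1r1, which encodes the receptor for interleukin 1, had 0 and 3 UMIs in WT and 0 and 2 in IL1α-/- cycling lymphocytes. The libraries shared at most 6 cell barcodes with one another. Listed in the order WT replicates 1 and 2, then IL1α-/- replicates 1 and 2, the cycling lymphocytes numbered 125, 240, 113 and 255.

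A resting lymphocyte enters the cell cycle after signals through its antigen receptor, costimulatory receptors and growth cytokines. Cyclin D kinases then release the E2F transcription factors, which switch on DNA replication genes, and a later wave of genes for mitosis follows in G2 and M phase. Mki67 encodes the Ki-67 protein of the chromosome surface in mitosis, and Top2a encodes the topoisomerase that untangles replicated DNA. In tumours, CD8 T cells that recognise tumour antigen divide and kill, natural killer (NK) cells kill without a rearranged receptor, and Foxp3-positive regulatory T cells restrain both.

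The genes of the 2 waves are marked by short letters in their promoters, which is why a few of these sequences are shown. The letters searched on both strands were TTTGAA for the cell cycle genes homology region (CHR), bound by the MuvB complexes that control mitotic genes, CCAAT for the element read by NF-Y, and TTTGGCGC, TTTCCCGC, TTTCGCGC or TTTGCCGC for E2F. Promoters were the 300 bases from 250 before to 50 after a RefSeq start (GRCm38.p6), printed 5′ to 3′ in the direction of the gene, with matches in capitals; matches of different motifs, or of 1 motif on both strands, may touch or overlap.
Plk1 (chr7:122159185-122159484, plus strand): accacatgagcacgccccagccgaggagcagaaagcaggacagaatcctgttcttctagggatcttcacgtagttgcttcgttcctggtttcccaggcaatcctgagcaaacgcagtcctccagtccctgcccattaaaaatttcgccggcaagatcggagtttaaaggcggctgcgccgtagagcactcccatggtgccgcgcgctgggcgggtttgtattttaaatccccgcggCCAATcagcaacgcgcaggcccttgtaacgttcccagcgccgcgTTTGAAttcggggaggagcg
Cdc20 (chr4:118437294-118437593, minus strand): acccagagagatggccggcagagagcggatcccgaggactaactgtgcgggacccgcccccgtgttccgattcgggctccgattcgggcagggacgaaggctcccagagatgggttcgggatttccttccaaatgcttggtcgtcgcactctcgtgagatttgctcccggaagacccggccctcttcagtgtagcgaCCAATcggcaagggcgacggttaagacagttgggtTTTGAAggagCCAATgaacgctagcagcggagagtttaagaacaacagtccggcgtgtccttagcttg
Cdk1 (chr10:69352863-69353162, minus strand): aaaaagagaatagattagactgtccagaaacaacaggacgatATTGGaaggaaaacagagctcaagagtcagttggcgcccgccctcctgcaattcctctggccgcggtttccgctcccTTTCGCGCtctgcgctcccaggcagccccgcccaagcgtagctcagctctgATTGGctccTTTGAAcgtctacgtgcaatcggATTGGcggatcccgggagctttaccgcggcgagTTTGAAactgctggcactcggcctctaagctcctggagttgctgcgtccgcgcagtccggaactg
Mcm6 (chr1:128359656-128359955, minus strand): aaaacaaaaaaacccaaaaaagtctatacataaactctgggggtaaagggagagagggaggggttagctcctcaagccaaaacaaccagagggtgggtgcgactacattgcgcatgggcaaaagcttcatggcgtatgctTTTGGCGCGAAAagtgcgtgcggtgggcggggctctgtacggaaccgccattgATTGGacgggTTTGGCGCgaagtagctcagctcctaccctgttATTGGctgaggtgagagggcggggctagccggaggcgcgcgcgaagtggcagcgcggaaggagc

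Plk1, Cdc20 and Cdk1 encode a mitotic kinase, the activator that starts anaphase, and the kinase that drives entry into mitosis; Mcm6 encodes a subunit of the replication helicase. The CHR letters stood in 36 of the 46 promoters found for 43 genes of a mitosis and G2/M list (78.3%) and in 17.9% of all 32851 promoters. The E2F letters stood in 12 of the 38 promoters of 30 DNA replication and S phase genes (31.6%), against 2.26% of all promoters and 4.35% of the mitosis and G2/M promoters. CCAAT stood in 78.3% of the mitosis and G2/M promoters and in 37.4% of all. Of 19 promoters of cytotoxic effector genes, 4 held CHR letters and 0 held E2F letters. A match is a description of the letters and says nothing of binding in these cells.

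The cells chosen by Mki67 and Top2a carried both waves of the programme in every library. All 40 genes of the S phase list and all 50 of the mitosis and G2/M list, neither of which holds Mki67 or Top2a, had a higher CPM (UMIs scaled to the summed total, here without further scaling) in cycling than in non-cycling lymphocytes of each of the 4 samples. Of the 8743 genes tested in both states, 24.6% were higher and 29.7% lower in cycling cells in all 4. The summed level of the S phase list was 5.69, 4.80, 4.68 and 5.53 times that of non-cycling cells in the order WT replicates 1 and 2 and IL1α-/- replicates 1 and 2, and that of the G2/M list was 8.10, 7.64, 7.98 and 7.16 times. Cells were chosen by their cycle genes, so these ratios describe the choice and were not tested.

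Among single genes, Rrm2, a subunit of the enzyme that makes deoxynucleotides, stood at 193, 185, 278 and 244 CPM in cycling cells and at 2.01 to 5.28 CPM in non-cycling cells, again without further scaling. Birc5, which encodes survivin of the chromosomal passenger complex, stood at 384, 318, 350 and 407 CPM against 1.20 to 4.52 CPM. In cycling cells the groups overlapped for Birc5, while for Rrm2 both IL1α-/- libraries lay above both WT libraries. No gene of the S phase list passed the test between hosts given below. Of 28 cyclins, kinases and inhibitors of cell cycle entry, 16 were higher in cycling cells in all 4 samples, among them Cdk4, E2f1, E2f8 and Foxm1, and 8 were lower in all 4, beside the 24.6% and 29.7% of all genes. The lower ones were Ccnd2, Ccnd3, Rbl2, Cdkn1b, Btg1, Btg2, Tob1 and Klf2, which include the inhibitor p27 (Cdkn1b) and the quiescence factors Btg1, Tob1 and Klf2. Ccnd2 and Ccnd3 encode the D cyclins of early G1. The naive and memory list had 0.46, 0.58, 0.42 and 0.38 times its non-cycling level, and the glycolysis and biosynthesis list had 1.63, 1.61, 1.45 and 1.20 times.

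Mki67, Top2a, Cd3e and Ncr1 are genes of the gate, so their counts in the chosen cells describe the gate and cannot test the label. Mki67 was detected in 102, 209, 98 and 226 of the cycling lymphocytes in the order given, and Top2a in 113, 201, 105 and 228. Cd3e was detected in 64 of 125 and 151 of 240 cycling cells of the WT libraries and in 103 of 113 and 231 of 255 of the IL1α-/- libraries. Ncr1, which encodes the NK receptor NKp46, was detected in 59 and 96 WT cells and in 8 and 19 IL1α-/- cells. The gate thus held T cells and NK or other innate lymphoid cells together, in different proportions in the 2 groups. At the threshold, 29, 53, 15 and 46 cells held exactly 2 UMIs of Mki67 and Top2a, and 163, 222, 126 and 165 lymphocytes just outside it held exactly 1. Cycling cells had a median of 8062, 9670, 3139 and 7885 UMIs, against 2719, 3708, 1272 and 2533 in non-cycling cells.

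The share of lymphocytes that was cycling was 5.86% (exact Clopper-Pearson 95% interval 4.90% to 6.95%) and 11.0% (9.73% to 12.4%) in the WT libraries, and 5.51% (4.56% to 6.59%) and 11.4% (10.1% to 12.8%) in the IL1α-/- libraries. Intervals here and below cover counting error only. Both replicates numbered 2 lay above both numbered 1, and the groups overlapped. The means were 8.44% ± 3.65 in WT and 8.45% ± 4.16 in IL1α-/- hosts (SD, n = 2 each), a difference of 0.0094 percentage points (exact two-sided permutation p = 1, where the smallest p that 4 samples allow is 0.33). A deeper cell has more chance of showing 2 UMIs, so each cell was also thinned by random draw to 1000 UMIs, leaving out 60, 56, 543 and 94 shallower lymphocytes, and the gate was applied again, which left 1727, 1772, 1402 and 1854. The cycling shares were then 1.51%, 4.01%, 4.21% and 4.10%. The groups no longer overlapped, with both IL1α-/- libraries above both WT libraries, WT replicate 1 lowest. The difference was then 1.40 percentage points (exact permutation p = 0.33, the smallest possible).

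The subsets of the cycling cells set the 2 groups apart. In IL1α-/- tumours 88 of 113 and 195 of 255 cycling lymphocytes were of CD8 type (Cd8a or Cd8b1 detected, with CD3 and without Cd4 or Ncr1), against 14 of 125 and 31 of 240 in WT tumours. That is 11.2% (95% interval 6.26% to 18.1%) and 12.9% (8.95% to 17.8%) in WT and 77.9% (69.1% to 85.1%) and 76.5% (70.8% to 81.5%) in IL1α-/- libraries, and the groups did not overlap. The difference of 65.1 percentage points was large against SDs of 1.21 and 0.99 (n = 2 each), with an exact two-sided permutation p of 0.33, the smallest possible. With cells thinned to 1000 UMIs the shares were 11.5%, 19.7%, 64.4% and 53.9%, a difference of 43.5 points. Cells with CD3 and no gene of another subset detected were then 38.5%, 53.5%, 30.5% and 44.7% of the cycling cells. With all UMIs they were 13.6%, 18.8%, 9.73% and 7.06%, so thinning left more cells without a subset.

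The cycling cells of WT tumours were spread over several subsets. NK/ILC type cells, with Ncr1 and no CD3 UMI, made up 36.0% (27.6% to 45.1%) and 22.1% (17.0% to 27.9%) of WT cycling lymphocytes and 2.65% (0.55% to 7.56%) and 2.75% (1.11% to 5.57%) of those of IL1α-/- hosts. CD4 type cells, with Cd4 and no CD8 chain, made up 24.0% and 22.9% in WT and 1.77% and 4.71% in IL1α-/- hosts. Neither subset overlapped between the groups, and both differences, of -26.3 and -20.2 points, had an exact permutation p of 0.33. Part of the CD4 type were cells with Foxp3, the factor that defines regulatory T cells: 13 and 19 WT cells, 10.4% and 7.92% of the cycling lymphocytes, against 1 cell in each IL1α-/- library. That count asks for a Cd4 UMI as well. Over all subsets, Foxp3 was detected in 16.8% and 16.25% of WT and in 3.54% and 7.06% of IL1α-/- cycling lymphocytes.

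Smaller subsets completed the picture. Gamma-delta type cells, with Trdc and no Trac, were 4 of 125 and 8 of 240 cycling cells in WT and 0 of 113 (which allows up to 2.65%) and 1 of 255 in IL1α-/- libraries. Cells with both CD3 and Ncr1 were 11.2% and 17.9% in WT and 4.42% and 4.71% in IL1α-/- libraries. Cells with both Cd4 and a CD8 chain were 0.80%, 2.08%, 3.54% and 3.92% in the order of samples. The remaining cells, with CD3 alone, were 13.6%, 18.8%, 9.73% and 7.06%. A subset name rests on detected UMIs alone, so a cell of low depth can fall among the CD3-only cells.

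**Figure D1:**
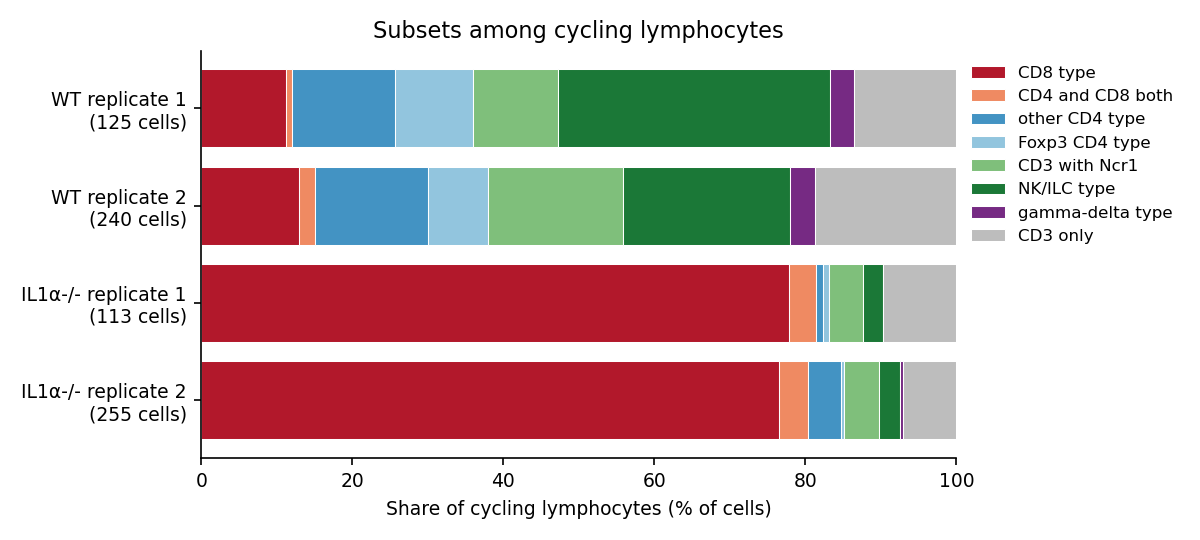
Subsets among the cycling lymphocytes of each sample; the horizontal axis is the share of cycling lymphocytes in percent of cells, each bar is 1 sample and each colour 1 of 8 subsets. CD8 type cells fill 77.9% and 76.5% of the IL1α-/- bars and 11.2% and 12.9% of the WT bars.

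Free RNA adds single UMIs to droplets of other cells, and its level was read in fibroblast droplets, which held at least 5 UMIs of Col1a1, Col3a1 and Dcn together and none of Ptprc, the leukocyte gene for CD45. Of 337, 207, 279 and 246 such droplets, 0, 0, 3 and 2 held a UMI of Cd8a or Cd8b1, at median depths of 6187, 10496, 3142 and 7423 UMIs. Cd4 was found in 0, 1, 0 and 1 of them and Ncr1 in 0, 1, 0 and 0. A UMI of Cd3d, Cd3e or Cd3g was found in 3.26%, 6.28%, 6.45% and 6.10%. In 1.48%, 5.80%, 1.08% and 1.22% there were 2 or more UMIs of Mki67 and Top2a. A dividing fibroblast can hold these 2 transcripts of its own, so those shares are not a level of free RNA.

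Among all gated lymphocytes, cycling or not, the CD8 type made up 6.61% and 11.3% in WT and 41.8% and 36.5% in IL1α-/- libraries. Within this subset, the cycling share was 9.93% (5.54% to 16.1%) and 12.6% (8.69% to 17.3%) in WT and 10.3% (8.32% to 12.5%) and 23.8% (21.0% to 26.9%) in IL1α-/- libraries. The groups overlapped, and their means differed by 5.81 points, less than the SD of 9.60 in IL1α-/- hosts (exact permutation p = 0.67). Its sign turned without IL1α-/- replicate 2, to -0.97 points, and it was 1.26 points with cells thinned to 1000 UMIs, where the shares were 3.53%, 7.33%, 5.98% and 7.40%. Foxp3 CD4 type cells had the same kind of overlap, with 13 of 57, 19 of 75, 1 of 4 and 1 of 20 cycling.

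For 3 other subsets the cycling share of both IL1α-/- libraries lay below that of both WT libraries. Of CD4 type cells, 8.70% and 14.8% were cycling in WT and 1.63% and 3.99% in IL1α-/- libraries. Of NK/ILC type cells, 6.43% (4.73% to 8.51%) and 7.88% (5.95% to 10.2%) were cycling in WT and 0.84% (0.17% to 2.42%) and 2.24% (0.90% to 4.55%) in IL1α-/- libraries. Gamma-delta type cells gave 3.51%, 6.72%, 0 of 69 (which allows up to 4.35%) and 0.91%. Each of these 3 differences had an exact permutation p of 0.33, the smallest possible.

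After thinning to 1000 UMIs, NK/ILC type cells gave 1.80%, 1.84%, 0.53% and 0.47%, from 9, 9, 1 and 1 cycling cells. CD4 type cells gave 0.72%, 2.76%, 0 and 0, from 1, 4, 0 and 0 cycling cells of 139, 145, 66 and 157, and the 2 zeros allow up to 4.55% and 1.91%. The NK/ILC groups still did not overlap after thinning. The CD4 counts after thinning were too few to show a difference at this depth.

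**Figure D2:**
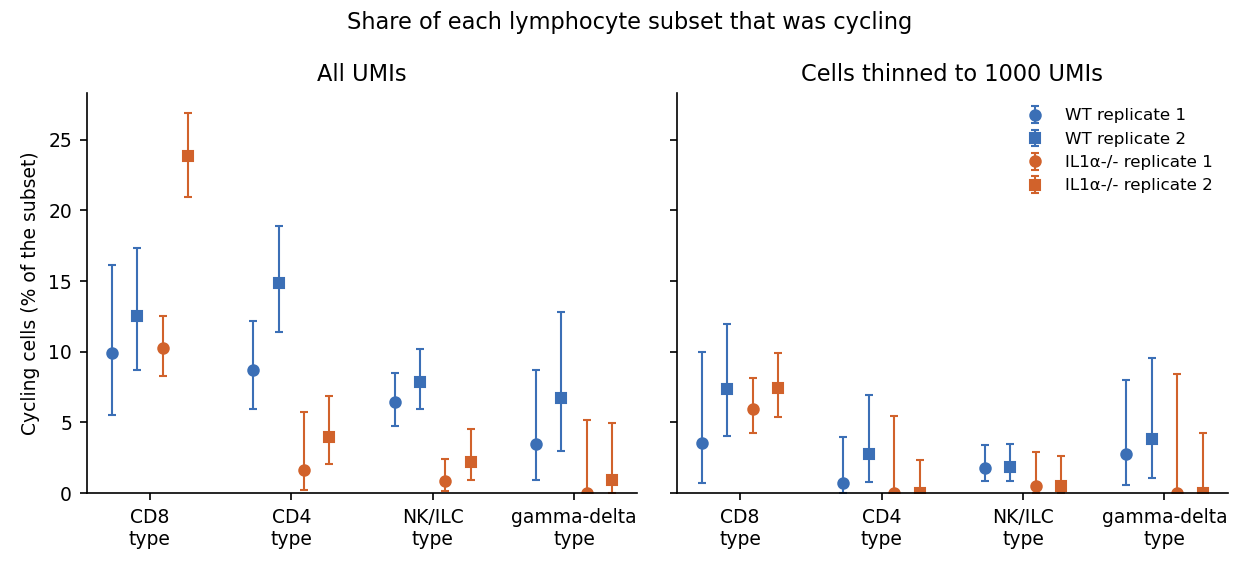
Cycling cells in percent of each lymphocyte subset (vertical axis), with all UMIs on the left and with cells thinned to 1000 UMIs on the right; each point is 1 sample and each bar its exact 95% binomial interval. The NK/ILC points of both IL1α-/- samples lie below those of both WT samples in both panels, and the CD8 points overlap.

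The host difference in the balance of S phase to mitosis within the cycling cells kept its sign with all UMIs but turned after thinning. The log2 ratio of summed UMIs of the S phase list over the G2/M list was -1.48 and -1.43 in WT and -1.56 and -1.52 in IL1α-/- hosts. The means were -1.45 and -1.54, with SDs of 0.036 and 0.024, and the difference was -0.089 (n = 2 each, exact permutation p = 0.33). It ranged from -0.11 to -0.063 with 1 sample left out. With each cell thinned to 1000 UMIs the ratios were -1.76 and -1.76 in WT and -1.49 and -1.80 in IL1α-/- hosts, the groups overlapped and the difference turned to 0.12 (exact permutation p = 1).

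Gene expression was compared between hosts on UMI counts summed over the cycling lymphocytes of each sample, with edgeR's quasi-likelihood test and Benjamini-Hochberg adjustment over all genes tested. Of 8898 genes, 98 were higher in IL1α-/- hosts (1.1%) and 102 lower (1.15%), 2.25% in all, and 1305 (14.7%) had an unadjusted p under 0.05. DESeq2 called 127 genes, 77 higher and 50 lower, and edgeR called 31 without WT replicate 2. The groups did not overlap for 46.3% of all genes tested, so a lack of overlap by itself says little of a gene. A summed level mixes subsets: more cells of a subset and more RNA per cell cannot be told apart in it. The lists below, of the lymphocyte programmes, were tested gene by gene. Their counts of genes that passed are to be read beside the 2.25% of all genes.

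Among cells already in cycle, 1 of the 117 tested genes of the 3 cell cycle lists passed the test between hosts (0.855%), beside 2.25% of all genes, so nothing is read from the small number. None of the 40 S phase genes and none of the 50 mitosis and G2/M genes passed the test in edgeR or in DESeq2, with 4 S phase and 5 G2/M genes higher and 1 of each lower at an unadjusted p under 0.05 in edgeR. Their median log2 differences were 0.05 and 0.09, beside -0.02 for all genes. Cdkn1a, which encodes the cyclin kinase inhibitor p21, was the 1 gene of 27 tested cyclins, kinases and inhibitors that passed. It stood at 58.2 and 71.9 CPM in WT and at 157 and 180 CPM in IL1α-/- libraries, and rose by 1.37 on the log2 scale (SE 0.23, edgeR adjusted p = 0.0134). Ccnd2 stood at 256, 284, 201 and 199 CPM (log2 difference -0.44, edgeR adjusted p = 0.377), Ccnd3 at 120, 124, 53.1 and 93.1 CPM (-0.64, edgeR adjusted p = 0.278) and Myc, the growth factor-induced transcription factor, at 32.1, 33.0, 11.5 and 16.1 CPM (-1.12, edgeR adjusted p = 0.101). These 3 did not pass, although their groups did not overlap.

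Cd3d, Cd3e and Cd3g helped to define the cells and are left out of the receptor and coreceptor count. Of the 17 other genes tested, 3 rose and 5 fell (47.1%, beside 2.25% of all genes). Cd8b1 (ENSMUSG00000053044, chromosome 6 from 71322788 to 71337494, GRCm38), a chain of the CD8 coreceptor, stood at 58.2 and 77.7 CPM in WT and at 644 and 428 CPM in IL1α-/- libraries, a log2 fold change of 2.94 (SE 0.28, edgeR adjusted p = 0.00157). Cd8a (ENSMUSG00000053977, chromosome 6 from 71373427 to 71379173) stood at 46.1, 99.1, 411 and 346 CPM (2.32, SE 0.32, edgeR adjusted p = 0.00596). Both IL1α-/- libraries were far above both WT libraries for each chain. Themis, which tunes receptor signals in thymocytes and T cells, rose as well (1.84, edgeR adjusted p = 0.00596).

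The genes that fell were Cd4, Trdc, Trbc1, Tcrg-C1 and Tcrg-C4. Trdc, the constant segment of the delta chain (ENSMUSG00000104876, chromosome 14 from 54142851 to 54148868), stood at 152 and 189 CPM in WT and at 23.1 and 17.8 CPM in IL1α-/- libraries, and fell by 3.16 on the log2 scale (SE 0.27, edgeR adjusted p = 0.0011). Cd4 stood at 57.2, 53.6, 16.2 and 15.7 CPM and fell by 1.80 (SE 0.27, edgeR adjusted p = 0.00874). The 2 groups did not overlap for either. Trbc1, Tcrg-C1 and Tcrg-C4 have near copies, so how reads were split among them is uncertain. Trdc was not confined to gamma-delta type cells: NK/ILC type cycling cells of WT held 182 and 148 CPM of Trdc, without scaling, beside 717 and 879 CPM in gamma-delta type ones.

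Of 17 tested NK and ILC genes other than Ncr1, 8 fell and 1, Cxcr6, rose. Ncr1 helped to define the cells and is given as values only, 353 and 201 CPM in WT and 32.3 and 28.4 CPM in IL1α-/- libraries. Tyrobp, the DAP12 adaptor of activating NK receptors, stood at 426, 352, 99.2 and 75.8 CPM and fell by 2.19 (SE 0.25, edgeR adjusted p = 0.00235). Tyrobp was lower in both IL1α-/- libraries than in either WT library. The Ly49 receptor genes Klra4 (-3.30) and Klra7 (-3.10) also fell, but belong to a family of near copies and are uncertain. Klrb1c, Eomes, Fcer1g, Txk and Klrg1 fell too.

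The number of NK/ILC type cells moved with these genes. NK/ILC type cells gave 45 and 53 cycling cells in WT and 3 and 7 in IL1α-/- libraries. With T cells alone (CD3 detected, Ncr1 not), 7810 genes were tested and 86 passed in edgeR (1.1%), 32 higher (0.41%) and 54 lower (0.691%), and Tyrobp turned to 0.43 on the log2 scale. Within NK/ILC type cycling cells, Tyrobp stood at 886, 1040, 1528 and 1364 CPM without scaling.

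Cytotoxic effector genes split. Of 18 tested, Gzmb, Fasl, Ccl5 and Klrc1 rose and Gzma and Xcl1 fell. Ccl5 (ENSMUSG00000035042, chromosome 11 from 83525778 to 83530518), a chemokine of effector T cells, stood at 436 and 383 CPM in WT and at 6131 and 2739 CPM in IL1α-/- libraries (log2 fold change 3.44, SE 0.36, edgeR adjusted p = 0.00235). Gzmb (ENSMUSG00000015437, chromosome 14 from 56258838 to 56262260), which encodes the protease granzyme B, stood at 106, 209, 611 and 683 CPM (2.02, SE 0.30, edgeR adjusted p = 0.00868). Xcl1 (ENSMUSG00000026573, chromosome 1 from 164931644 to 164935527), the lymphotactin that draws cross-presenting dendritic cells, stood at 1008, 920, 132 and 30.5 CPM and fell by 3.84 (SE 0.51, edgeR adjusted p = 0.0052).

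None of these 3 genes overlapped between the groups. Fasl, the death ligand, stood at 33.1, 31.9, 76.1 and 94.8 CPM (1.44, edgeR adjusted p = 0.0124). Prf1 (perforin) at 117, 173, 173 and 76.2 CPM and Ifng (interferon γ) at 52.1, 316, 159 and 142 CPM overlapped and did not pass (edgeR adjusted p = 0.728 and 0.844). Gzma (granzyme A) stood at 1448 and 1967 CPM in NK/ILC type cycling cells of WT, without scaling. In those of IL1α-/- hosts, which were the few cells given above, it stood at 2546 and 4222 CPM. CD8 type cycling cells had 0, 2.87, 50.4 and 9.84 CPM. Its level in cells with both CD3 and Ncr1 and in CD3-only cells was not looked at.

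**Figure D3:**
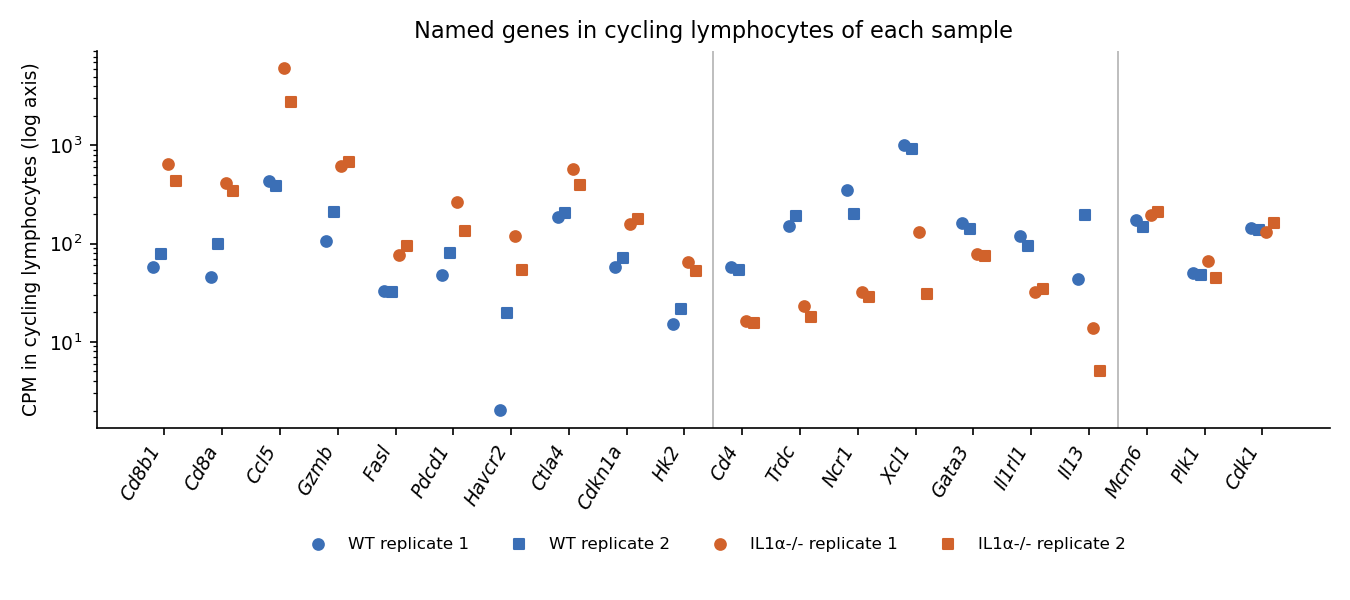
CPM of 20 named genes in cycling lymphocytes (vertical log axis), 1 point per sample; the vertical lines part genes higher in IL1α-/- hosts, genes lower there, and 3 cell cycle genes that did not pass. Cd8b1 lies at 644 and 428 CPM in the IL1α-/- samples against 58.2 and 77.7 in WT, while Mcm6, Plk1 and Cdk1 lie close together in all 4.

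Checkpoint and activation receptors rose in part. Of 19 tested genes of the checkpoint and exhaustion list, Pdcd1, Havcr2, Ctla4, Nr4a2, Nr4a3 and Icos rose and Tnfrsf4 (OX40) fell, with a list median of 1.01 on the log2 scale. Pdcd1 (PD-1) stood at 48.1 and 79.3 CPM in WT and at 268 and 134 CPM in IL1α-/- libraries (1.55, SE 0.35, edgeR adjusted p = 0.0478). Havcr2 (TIM-3) stood at 2.01, 19.8, 120 and 54.2 CPM, from 2 UMIs in WT replicate 1 (2.53, SE 0.56, edgeR adjusted p = 0.0465). Icos, a costimulatory receptor, stood at 126, 133, 685 and 350 CPM (1.97, SE 0.31, edgeR adjusted p = 0.00971).

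All 3 receptors were higher in both IL1α-/- libraries, and Pdcd1 and Havcr2 passed in 8 of 16 alternative settings each. Nr4a2 and Nr4a3, early genes of receptor signalling, had log2 fold changes of 1.66 and 1.46 (edgeR adjusted p = 0.00703 and 0.00874). Lag3 at 34.1, 67.6, 249 and 60.5 CPM (edgeR adjusted p = 0.266), Tigit at 9.03, 6.997, 30.0 and 10.2 CPM (edgeR adjusted p = 0.445) and Tox at 94.3, 83.2, 185 and 32.2 CPM (edgeR adjusted p = 0.995) did not pass. For Lag3 and Tox the 2 IL1α-/- libraries differed from each other by more than the groups did, with replicate 1 the higher.

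Some type 2 and regulatory T cell genes fell. Of 11 tested genes of the type 2 and IL-33 list, Gata3, Il1rl1, Il5 and Il13 fell. None rose in edgeR or DESeq2, and none had a higher level at an unadjusted p under 0.05. DESeq2 called 1 of the list lower. Il1rl1 (ENSMUSG00000026069, chromosome 1 from 40429570 to 40465415), which encodes the IL-33 receptor ST2, stood at 120 and 94.5 CPM in WT and at 32.3 and 34.7 CPM in IL1α-/- libraries, and fell by 1.64 (SE 0.25, edgeR adjusted p = 0.00874). Il13 stood at 43.1, 197, 13.8 and 5.08 CPM and fell by 4.19 (SE 0.73, edgeR adjusted p = 0.0176). Gata3, the factor of type 2 T cells, stood at 163, 141, 78.5 and 74.5 CPM and fell by 0.99 (SE 0.22, edgeR adjusted p = 0.0487), a call that held in 7 of 16 alternatives.

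The CD4 type cells carried these transcripts in WT. Il1rl1 stood at 415 and 309 CPM and Il13 at 150 and 810 CPM in WT CD4 type cycling cells, without scaling, against 0 CPM of either in NK/ILC type cycling cells. Of 9 tested regulatory T genes, Ikzf2 (Helios) and Itgae (the integrin CD103) fell and Ctla4 rose. Ikzf2 stood at 417, 294, 115 and 64.4 CPM and fell by 2.08 (SE 0.31, edgeR adjusted p = 0.00868). Foxp3 itself stood at 43.1, 46.6, 18.5 and 25.4 CPM (-0.94, SE 0.27) and did not pass (edgeR adjusted p = 0.122).

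Ikzf2 was lower in both IL1α-/- libraries, and so was Foxp3. Il2ra, the high-affinity chain of the interleukin 2 receptor, stood at 186, 225, 104 and 111 CPM (-0.93, edgeR adjusted p = 0.0626) and did not pass. Of 15 naive and memory genes, Txk alone passed, lower; Tcf7 stood at 84.2, 62.6, 4.61 and 35.6 CPM (edgeR adjusted p = 0.136) and Il7r at 126, 99.5, 48.5 and 74.1 CPM (edgeR adjusted p = 0.174).

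In the other programmes 4.35% of growth cytokine genes and 8% of glycolysis and biosynthesis genes passed, beside 2.25% of all genes. Of 23 growth cytokine genes 1 rose, Il21r, the receptor for interleukin 21, from 42.1 and 58.3 CPM to 210 and 138 CPM (log2 fold change 1.71, SE 0.28, edgeR adjusted p = 0.0113). Of 25 glycolysis and biosynthesis genes 2 rose, Slc2a3, the glucose transporter GLUT3 (1.58, edgeR adjusted p = 0.0108), and Hk2, hexokinase 2 (1.55, edgeR adjusted p = 0.0209). The groups did not overlap for these 3 genes.

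Of 22 interferon response genes 2 rose in edgeR (9.09%, beside 2.25% of all genes), and DESeq2 called none. Isg15, a ubiquitin-like protein induced by interferon, stood at 5.01, 23.3, 43.8 and 81.3 CPM (2.03, SE 0.45, edgeR adjusted p = 0.0478), and Irf1 at 72.2, 85.1, 141 and 186 CPM (1.07, SE 0.23, edgeR adjusted p = 0.0438). The list median was 0.51, with 19 of 22 genes above 0, beside -0.02 for all genes. Of 11 genes of the IL-1 family, its receptors and their signalling, Tnfaip3, which encodes the NF-κB inhibitor A20, rose (1.37, edgeR adjusted p = 0.0198) and Il1rl1 fell. These 2 genes were 18.2% of those tested in that list. Abcb1b, a drug efflux pump, had 1 of the smallest p-values among higher genes, at 16.0, 17.5, 62.3 and 82.6 CPM (2.14, edgeR adjusted p = 0.00315).

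Ighm, the constant segment of the immunoglobulin M heavy chain, had 1 of the smallest p-values among lower genes. It stood at 143, 119, 23.1 and 26.7 CPM and fell by 2.34 (SE 0.25, edgeR adjusted p = 0.00235). Of an 8-gene B and plasma cell list, which holds Ighm, 2, 4, 2 and 5 genes had a UMI in the cycling cells of the 4 libraries, and the part of B cell transcripts in this value was not tested. Pcna-ps2 (0, 0.39, 76.1 and 73.2 CPM), Eif3j1 (14.04, 31.9, 155 and 205 CPM) and Eif3j2 (53.2, 49.0, 2.31 and 3.81 CPM) were also among the smallest p-values. Each of these 3 has a near copy in the genome and is uncertain.

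The same comparison within CD8 type cycling cells asks what differed without the change in subsets. It rests on 14 and 31 WT cells and 88 and 195 IL1α-/- cells. Of 4711 genes tested in edgeR, 10 passed (0.212%), 4 higher (0.0849%) and 6 lower (0.127%), and 445 (9.45%) had an unadjusted p under 0.05. Ccl5, Dusp5 and the uncertain Eif3j1 and Pcna-ps2 were higher, and Xcl1, Ramp1, Itgae, Ighm, Pacsin1 and the uncertain Eif3j2 were lower.

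Ccl5 stood at 607 and 788 CPM in WT and at 6819 and 2623 CPM in IL1α-/- CD8 type cycling cells, without scaling (log2 fold change 2.70, SE 0.40, edgeR adjusted p = 0.033). Dusp5, a phosphatase that acts on ERK, stood at 109, 158, 569 and 483 CPM (1.89, SE 0.31, edgeR adjusted p = 0.0361). Xcl1 stood at 304, 2812, 68.2 and 19.7 CPM and fell by 5.52 (SE 0.90, edgeR adjusted p = 0.0361). Within the CD8 type the groups did not overlap for these 3 genes, nor for 40.3% of the 4711 genes tested there. In WT replicate 2 the level of Xcl1 was far above that of WT replicate 1.

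Other genes did not pass within this subset. Gzmb stood at 54.5, 241, 605 and 716 CPM in CD8 type cycling cells (1.98, SE 0.46, edgeR adjusted p = 0.117), from 7 UMIs in WT replicate 1. Cdkn1a (1.91, edgeR adjusted p = 0.0655), Icos (2.32, edgeR adjusted p = 0.0655) and Isg15 (3.71, edgeR adjusted p = 0.0655), the last from 0 and 2 UMIs in WT, came next. Pdcd1 stood at 109, 172, 288 and 136 CPM (0.42, edgeR adjusted p = 0.801) and Havcr2 at 7.78, 94.6, 139 and 57.6 CPM (0.43, edgeR adjusted p = 0.886), and for both the groups overlapped. The values of Pdcd1 and Havcr2 in all cycling lymphocytes were 1.55 and 2.53 on the same scale.

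To ask whether the host difference itself depended on cycling, the difference in cycling lymphocytes was compared with that in non-cycling lymphocytes of the same 4 libraries. In non-cycling cells 293 genes (2.65%) were higher and 158 (1.43%) lower of 11065 tested with edgeR, 4.08% in all. The interaction of state and host, tested in edgeR with the sample as a block, passed for 18 of 10406 genes (0.173%), 1 higher (0.00961%) and 17 lower (0.163%) in the cycling state, and 726 genes (6.98%) had an unadjusted p under 0.05. Leaving out WT replicate 1 gave 117 genes, leaving out WT replicate 2 gave 68 and leaving out IL1α-/- replicate 1 gave 234. The non-cycling count was 86 without WT replicate 2.

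Cd8a and Cd8b1 were not among them. Cd8b1 had a host difference of 2.94 in cycling and 2.86 in non-cycling cells (interaction 0.12, SE 0.21, edgeR adjusted p = 0.941). Cd8a had 2.32 and 2.40 (interaction -0.02, SE 0.23, edgeR adjusted p = 1.00). Both interactions changed sign between settings.

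The 17 lower genes were Trdc, Cd4, the NK and ILC genes Klra4, Klra7, Txk and Tyrobp, Ncr1, which helped to define the cells, and Il1rl1, Ikzf2, Il10, Xcl1, Spry2, Atp1b1, Arg1, Gm13522, Cenpa and Gm2a. Cd4 stood at 81.6, 70.2, 61.2 and 96.3 CPM in non-cycling lymphocytes, where the groups overlapped (0.07, edgeR adjusted p = 0.865), while it fell by 1.80 in cycling ones. The interaction was -2.03 (SE 0.28, edgeR adjusted p = 0.0122). Il1rl1 stood at 145, 94.6, 94.6 and 153 CPM in non-cycling cells (0.06, edgeR adjusted p = 0.910), with an interaction of -1.86 (SE 0.25, edgeR adjusted p = 0.0122).

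Trdc fell in both states, by 0.85 in non-cycling and by 3.16 in cycling cells, with an interaction of -2.38 (SE 0.26, edgeR adjusted p = 0.00374). Ccl5, the 1 higher gene, rose by 2.35 in non-cycling and by 3.44 in cycling cells (interaction 1.02, SE 0.16, edgeR adjusted p = 0.0188). Within CD8 type cells alone the interaction passed for 3 of 7215 genes (0.0416%), and Trdc (0.85) and Il1rl1 (0.27) then had the opposite sign. Neither of the 2 passed there (edgeR adjusted p = 0.955 and 0.994). Trdc was found in only 0, 1, 1 and 3 CD8 type cycling cells in the order of samples. The non-cycling cells of a shallow library can include cycling cells without a captured UMI of Mki67 or Top2a, and the part of that in these values was not tested.

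**Figure D4:**
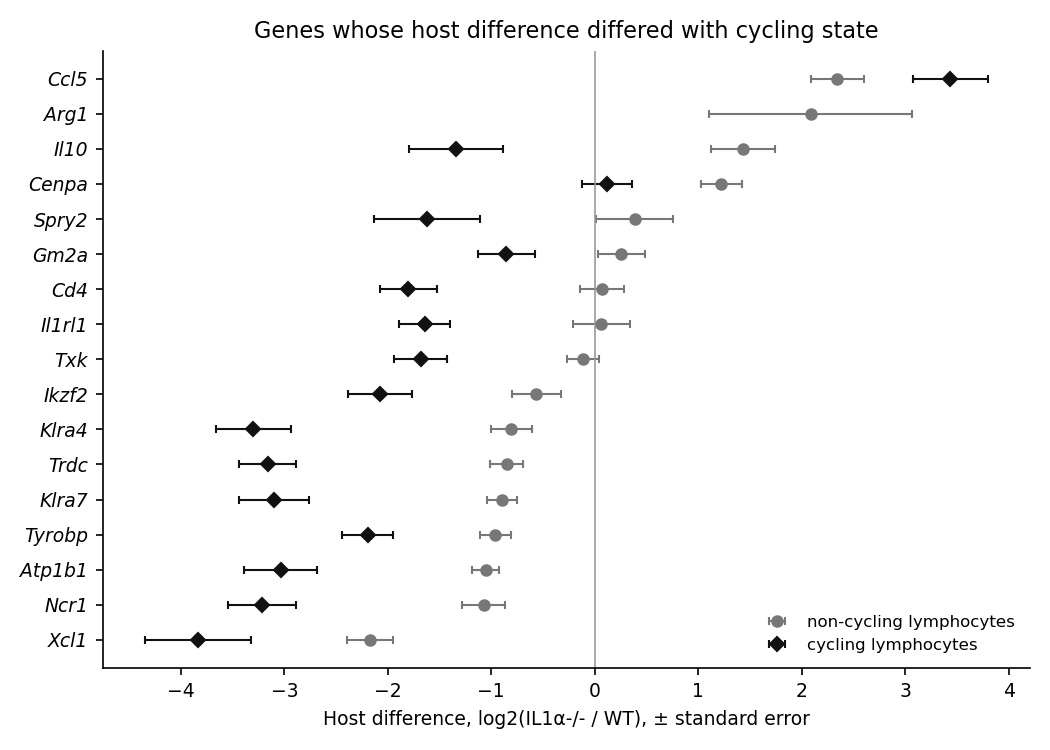
Host difference, log2 of IL1α-/- over WT (horizontal axis), in cycling and in non-cycling lymphocytes for 17 of the 18 genes that passed the interaction test (the unnamed gene model Gm13522 is left out, and Arg1 was too low to be tested in cycling cells); bars are standard errors from edgeR. The values of Cd4 and Il1rl1 lie near 0 in non-cycling cells and at -1.80 and -1.64 in cycling cells.

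T cell receptor V segments were counted, since cells of 1 dividing clone share them. Few cells showed one: of the CD8 type cycling cells, 3 of 14 and 9 of 31 in WT and 31 of 88 and 33 of 195 in IL1α-/- libraries held a UMI of any of 35 Trbv genes. In IL1α-/- replicate 1, Trbv2 was in 23 of the 31 (74.2%, exact 95% interval 55.4% to 88.1%) and Trbv3 in 8, with 3 cells holding both. In IL1α-/- replicate 2, Trbv4 was in 14 of the 33 (42.4%, 25.5% to 60.8%), among 7 segments seen. In WT replicate 2 no segment was in more than 2 of the 9 cells. The leading segment thus differed between the 2 IL1α-/- tumours, and the WT counts were too small to name one.

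The alpha chain gave a narrower picture in 1 tumour. Trav1 was in 26 of the 30 CD8 type cycling cells of IL1α-/- replicate 1 with any of 128 Trav genes (86.7%, 69.3% to 96.2%), against 0 of 38 in IL1α-/- replicate 2, 0 of 3 in WT replicate 1 and 0 of 8 in WT replicate 2. Trav1 was found with Trbv2 in 7 of these cells and with Trbv3 in 5. In IL1α-/- replicate 2, Trav5-4 led with 9 of 38 and Trav7-3 followed with 8.

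Non-cycling CD8 type cells of the same tumours were counted in the same way. In IL1α-/- replicate 1, Trbv2 was in 97 of 158 (61.4%), Trbv3 in 66 (41.8%) and Trav1 in 82 of 97 (84.5%). In IL1α-/- replicate 2, Trbv4 was in 19 of 66 (28.8%) and Trav7-3 in 45 of 80 (56.2%), while Trav5-4, which led in the cycling cells of that tumour, was in 6 of 80 (7.5%). The other lymphocytes of IL1α-/- replicate 1 were counted as a comparison from the same library. CD4 type cells held Trav1 in 0 of 10 and Trbv2 in 1 of 11. Lymphocytes of neither type held Trav1 in 15 of 40 (37.5%) and Trbv2 in 22 of 53 (41.5%). They include cells with both Cd4 and a CD8 chain, and CD3-only cells, where a CD8 T cell of low depth can fall. Whether these segments were limited to CD8 T cells was therefore not tested. These V genes were singled out after their values were seen. Several V genes have near copies, and the 3' libraries reach the V segment in few cells, so the counts do not define clones.

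**Figure D5:**
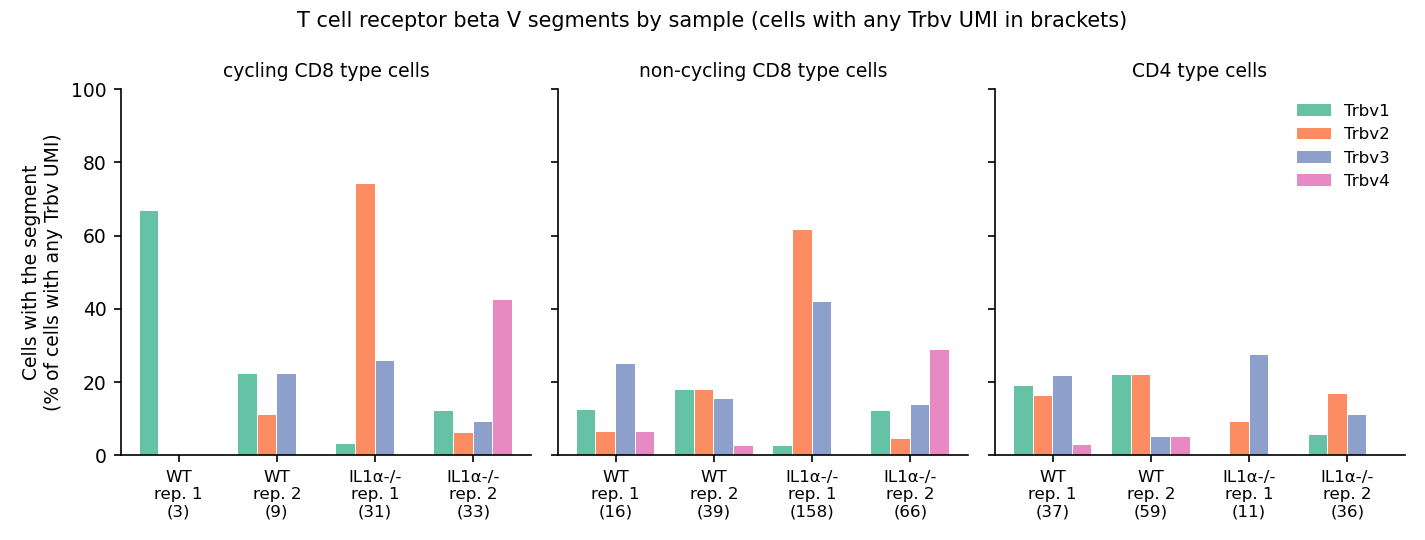
Cells with a UMI of Trbv1 to Trbv4 in percent of cells with any Trbv UMI (vertical axis), for cycling CD8 type, non-cycling CD8 type and CD4 type cells; each group of bars is 1 sample, with its number of cells in brackets. Trbv2 stands at 74.2% of cycling CD8 type cells in IL1α-/- replicate 1 and Trbv4 at 42.4% in IL1α-/- replicate 2.

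Transcripts of other cell types were counted in the cycling lymphocytes. The 8-gene fibroblast list summed to 25 and 3127 UMIs in WT and 261 and 567 in IL1α-/- libraries, from 2, 4, 1 and 4 cells with at least 5 such UMIs. The 8-gene B and plasma list summed to 153 and 130 CPM in WT and 25.5 and 31.1 CPM in IL1α-/- libraries. Most of each sum was Ighm, whose values are given above, so the list is not a separate measure. Of its genes Ms4a1 and Mzb1 were at 0 in all 4, Cd79a in all but IL1α-/- replicate 2, and Cd79b and Jchain in both replicates numbered 1. The tumour epithelial list, with 12 genes, gave 57.1, 46.5, 23.2 and 5.18 CPM, with 7, 9, 2 and 2 of its genes detected and Krt19 and Cldn4 at 0 in all 4. The phagocyte list, with 13 genes, gave 495, 365, 385 and 916 CPM, and Ly6c2, which CD8 T cells can also express, made up 1638 of its 2297 UMIs in IL1α-/- replicate 2. Adgre1 and Cd14 of that list were at 0 in both replicates numbered 1, and Fcgr1 in all but IL1α-/- replicate 1. A further test kept the 104, 173, 110 and 232 cycling cells that held fewer than 5 UMIs of other cell types' genes. Bst2, Irf8, Ccr7, Tcf4, Gata2, Apoe, Igkc, Ccr2 and Ly6c2 were left out of that count. Ighm, which was lower in IL1α-/- hosts, and Il1r2, with 4, 45, 0 and 3 UMIs in the cycling cells, stayed in it. In the cells kept, 427 genes passed in edgeR, 229 higher and 198 lower. Scrublet, a doublet caller, marked 2, 8, 4 and 10 of the cycling cells, and 301 genes passed in edgeR without them.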

How the data were processed

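Single-cell RNA was measured in 4 mouse tumours with 10x droplets. The deposited matrices hold UMI counts per gene and droplet; the authors made them with Cell Ranger 3.1.0, and the builds listed include mm10, per the submitters' processing notes. The matrices list 31053 mouse and 33538 human features, per the file headers, and the mouse rows were used here. Whether intronic reads or strand were counted is not given in the sources used here.

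From these counts, quality limits and marker limits selected the cells as described in the report. Cells fell into subsets by detected UMIs, checked in this order: no CD3 (NK/ILC type), CD3 with Ncr1, both coreceptors, CD8 type, CD4 type with or without Foxp3, gamma-delta type, CD3 only. Shares have exact Clopper-Pearson 95% intervals, which cover counting error only, and were compared over samples by exact two-sided permutation. Each cell was thinned once to 1000 UMIs for a comparison at equal depth. Doublets stayed in; Scrublet through scanpy 1.11.5 marked them for an alternative.

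UMI counts were summed per sample and state and tested with edgeR 4.0.16 in R 4.3.3 (quasi-likelihood, filterByExpr, TMM), with Benjamini-Hochberg adjustment over all genes tested and a threshold of 0.05. CPM are TMM-scaled unless given as without scaling. The interaction model holds the sample as a block. On simulated counts for the cycling comparison, 200 of 8642 genes changed by 1 on the log2 scale were recovered in 30% of cases, with 5 false calls. Of 200 genes in 8660 changed by 2, 95.5% were recovered. Alternatives were DESeq2 1.42.0, no scaling, no filter, other cell limits, other cell sets, a replicate block and each sample left out. Removing cells with other types' transcripts, thinning for the ratio of S phase to G2/M, and the restriction of the non-cycling and interaction tests to the CD8 type, were chosen after seeing the data.

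The members, the gene lists and the tests were chosen with earlier results of these data known. Genes are named where they are members of 1 of 14 lists and passed (at most the 4 with the smallest p per list), are among the 5 with the smallest p in each direction, or belong to a set of genes reported whether they passed or not. Names beyond that rule, the V segments among them, were chosen after their values were seen. Promoter sequences are from RefSeq (GRCm38.p6). Human features, empty droplets and protein sequences were not analysed here.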

Additional observations from a re-analysis of the deposited data

Results flagged for a closer look

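The difference between hosts differed between cycling and non-cycling lymphocytes for 18 genes in edgeR's interaction test. As log2 values, cycling minus non-cycling, it was -2.38 for Trdc, -1.86 for Il1rl1, -2.03 for Cd4, -1.94 for Ncr1 and -1.56 for Ikzf2. It was -2.58 for Klra4, -1.49 for Txk, -3.03 for Il10, -2.18 for Klra7 and -1.24 for Tyrobp. It was 1.02 for Ccl5, -1.80 for Xcl1, -1.95 for Spry2, -1.97 for Atp1b1, -4.08 for Arg1, -8.23 for the gene model Gm13522, -1.07 for Cenpa and -1.18 for Gm2a. Arg1, a gene of the phagocyte list, was too low to be tested in cycling cells alone. It had no UMI in the cycling cells of IL1α-/- replicate 1. The UMIs behind the value of Gm13522 are not given, so nothing is read from the size of either value. Ncr1 helped to define the cells of both states.

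Il10, which encodes a cytokine that dampens inflammation, stood at 14.04, 15.9, 9.23 and 5.08 CPM in cycling cells and at 14.2, 13.2, 24.0 and 48.1 CPM in non-cycling cells. Its host difference passed in neither state, with edgeR adjusted p of 0.193 and 0.0523. Cenpa, which encodes the histone variant of centromeres, stood at 355, 266, 385 and 293 CPM in cycling and at 44.8, 39.0, 117 and 80.6 CPM in non-cycling lymphocytes, where it rose by 1.22 on the log2 scale (edgeR adjusted p = 0.0288).

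UMIs assigned to human genes were seen in data the comparisons do not use, 1381 and 1514 in the WT libraries and 509 and 1037 in the IL1α-/- libraries, of 6705368 to 29001333 UMIs per library.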

How the results depend on the processing

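Of the alternative values of the main results, 134 stayed the same, among them all those run for the subset shares of cycling cells. Same here means an unchanged direction for shares and ratios, or a count of genes within 1.5 times the main count. Of the others, 18 counts moved by over 1.5 times and 8 values turned. For named genes 773 values held, 139 no longer passed, 13 newly passed and 24 turned. The cycling share of all lymphocytes, with its difference of 0.0094 points, turned to -2.15 points at 1 UMI or more of Mki67 and Top2a, to -0.0018 at 10% mitochondrial UMIs or fewer and to -0.043 without Scrublet doublets. The log2 ratio of S phase to G2/M UMIs, -0.089, turned to 0.12 after thinning to 1000 UMIs. The cycling share ranged from -2.93 to 2.95 points when 1 sample was left out, and that within CD8 type cells from -0.97 to 12.6 points. The cause was not tested for any of these.

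The count of 200 genes in cycling cells was 517 with no filter, 127 with DESeq2, 301 without Scrublet doublets, 86 in T cells, 10 in CD8 type cells and 427 without cells holding other types' transcripts. It ranged from 31 (without WT replicate 2) to 167 with 1 sample left out; fewer cells or samples enter several of these. The non-cycling count of 451 was 1715 with no filter and 68 in CD8 type cells, and ranged from 86 to 503 with 1 sample left out. The interaction count of 18 was 94 with no filter, 11 at 1 UMI or more, 38 without Scrublet doublets and 3 in CD8 type cells, and ranged from 21 to 234.

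Directions turned for a few genes. In cycling T cells Tyrobp was 0.43, Prf1 1.09 and Tox -0.046 on the log2 scale, and in cycling CD8 type cells Cd8a was -0.15, Tox -0.39 and Ccnd2 0.032. Tox was also -0.0025 with no TMM scaling, -0.015 without Scrublet doublets and -0.083 without cells holding other types' transcripts. With 1 sample left out, Prf1 ranged from -0.93 to 0.23, Ifng from -1.07 to 1.503 and Tox from -1.43 to 1.06. Of the interactions, Il1rl1 was 0.27, Trdc 0.85 and Cd8b1 -0.13 in CD8 type cells, Cd8b1 was -0.013 at 3 UMIs or more, and Cd8a was 0.043 with no filter and 0.10 at 1 UMI or more. With 1 sample left out Cd8a ranged from -0.42 to 0.27 and Cd8b1 from -0.21 to 0.31.

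The labels tell of 2 collection days with a pair each, but do not tie replicate numbers to days, so the numbers are only shared. The deviations of same-numbered samples from their group means correlated at -0.076 in cycling and 0.24 in non-cycling cells, across genes. With a replicate block 223 genes passed in cycling and 1518 in non-cycling cells, Ifng was 0.0050 and Tox -0.24. The cycling share differed by -0.35 points between the samples numbered 1. With 2 samples a group no permutation test can pass 0.05, and the 431485 UMIs from 113 cycling cells of IL1α-/- replicate 1 limit the low genes.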
